A study of Mus musculus with 6 samples.

Results

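Small nucleolar RNAs (snoRNAs) are short RNAs that guide chemical modification of ribosomal RNA, and most of those in mammals lie inside introns of other genes, their hosts. The host genes outside the ribosomal protein family were examined in embryonic mouse heads. They were taken by name: every gene symbol that starts with *Snhg* (small nucleolar RNA host gene), *Gas5*, *Dancr*, and 19 protein-coding genes known to carry snoRNAs. This gave 36 host genes of the 24421 symbols in the deposited table. The 15 *Snhg* genes, *Gas5* and *Dancr* are the 17 hosts called non-coding hosts here, although Gencode M21 lists *Snhg11* as protein-coding, and the other 19 are called protein-coding hosts. The genes were chosen by their kind and selected on results that already showed the difference in read counts between WT and mutant heads, so their fold changes, and every measure of the same contrast, are given as a description of these libraries.

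The mouse heads were collected at E9.0, before malformations are visible. Each library was made from a pool of 2 heads of one genotype, taken from different litters and matched for somite stage, on a mixed CD1 and C57BL/6 background. WT heads (n = 3 pools) are labelled *Snrpb* +/+, and the study's methods class every embryo without the heterozygous deletion as WT, so a WT pool may carry the floxed allele or the Cre transgene alone. Mutant heads (*Snrpb* ncc+/-, n = 3 pools) carry *Snrpb* loxP/+ and Wnt1-Cre2 tg/+, so that 1 copy of *Snrpb*, which encodes a core protein of the spliceosomal snRNPs, is deleted in the neural tube and neural crest, while the remaining cells of the head keep both copies. In such bulk samples, fewer cells of a type and less RNA per cell cannot be told apart. The number of reads counted per library lay between 36378803 and 74909774.

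The label could not be checked on *Snrpb* itself. *Snrpb* was at 430, 438 and 414 CPM (read counts scaled to the size of the library) in WT and at 436, 412 and 430 CPM in mutants, with overlapping groups and a log2 fold change of -0.0036 ± 0.039 (SE, edgeR). The row counts the whole gene, the undeleted exons and the cells outside the neural tube and crest included. The table did not show the deletion.

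A snoRNA is released when its host is spliced: the intron is cut out, opened and trimmed back to the snoRNA, which proteins bound to it protect. In several of the hosts called non-coding, the spliced exons carry no long reading frame, and their RNA is known to be degraded soon after it enters translation, through nonsense-mediated decay (NMD). Many hosts start with a stretch of pyrimidines, as the ribosomal protein genes do. Box C/D snoRNAs guide 2'-O-methylation and box H/ACA snoRNAs guide pseudouridylation, and scaRNAs guide the same changes on spliceosomal RNAs in Cajal bodies.

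The snoRNAs that the results below turn on are shown first, each 5' to 3' as DNA letters from Gencode M21 transcripts (GRCm38). Capitals mark the short motif next to the 3' end that marks the class, ACA in the last 8 bases of a box H/ACA RNA and CTGA in the last 16 bases of a box C/D RNA. Of all M21 transcripts named Snora or Scarna, 86.3% held ACA there, and of those named Snord 94.9% held CTGA. The RNAs shown are 3 of the 4 tested rows with the most reads and the tested row inside *Gas5*.
Scarna13, in an intron of *Snhg10*, chr12:105031075-105031349, minus strand: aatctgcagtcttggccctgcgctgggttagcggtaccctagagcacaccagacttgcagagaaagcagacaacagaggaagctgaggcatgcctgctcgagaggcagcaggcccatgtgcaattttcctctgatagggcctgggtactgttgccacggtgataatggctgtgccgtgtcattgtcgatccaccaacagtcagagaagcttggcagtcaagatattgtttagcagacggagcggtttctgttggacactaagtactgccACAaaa
Snora78, in an intron of *Snhg9*, chr17:24719676-24719803, minus strand: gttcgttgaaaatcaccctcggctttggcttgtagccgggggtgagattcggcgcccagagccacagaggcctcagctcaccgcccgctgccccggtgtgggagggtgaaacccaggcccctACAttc
Snord22, in *Snhg1*, chr19:8725866-8725991, plus strand: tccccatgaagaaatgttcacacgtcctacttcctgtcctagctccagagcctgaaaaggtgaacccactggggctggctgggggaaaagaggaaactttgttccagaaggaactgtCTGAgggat
Snord47, in *Gas5*, chr1:161038082-161038158, plus strand: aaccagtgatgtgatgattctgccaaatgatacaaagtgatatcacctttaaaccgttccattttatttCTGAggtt

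The starts of the hosts were read from RefSeq promoters of GRCm38, 20 bases before and 20 bases after an annotated start. Where a gene had several annotated starts, the one with the longest run was taken, for the hosts and for all other genes alike. The longest unbroken run of C and T, in any order and on the gene's own strand, that touched the 10 bases on either side of the start is in capitals. The windows shown include *Gas5*, the non-coding host with the most reads, and 3 of the 5 non-coding hosts with a run of at least 8 bases. The protein-coding hosts with the largest fold change and with the longest run are shown as well. Not shown are *Snhg18*, with the longest run of the non-coding hosts (10 bases, log2 fold change 0.17), and *Snhg9* (9 bases, -0.25).
*Gas5*, chr1:161035146-161035185, plus strand: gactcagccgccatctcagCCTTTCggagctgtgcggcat
*Snhg1*, chr19:8723467-8723506, plus strand: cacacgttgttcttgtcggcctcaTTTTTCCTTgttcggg
*Snhg10*, chr12:105032260-105032299, minus strand: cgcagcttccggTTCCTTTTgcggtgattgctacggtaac
*Snhg12*, chr4:132308658-132308697, plus strand: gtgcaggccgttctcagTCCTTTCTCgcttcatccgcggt
*Rabggtb*, chr3:153912947-153912986, minus strand: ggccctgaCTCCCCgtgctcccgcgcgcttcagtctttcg
*Gnb2l1*, chr11:48800340-48800379, plus strand: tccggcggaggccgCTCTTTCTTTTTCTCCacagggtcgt
A run of at least 8 bases was found for 5 of the 15 non-coding hosts with a window (33.3%) and for 3 of the 17 protein-coding hosts with one (17.6%), beside 16.9% of the 11535 tested genes with a start and 15.8% of all 27025. The median run was 6 bases in the non-coding hosts and 4 bases in the protein-coding hosts and in the tested genes. Among the hosts with such a run, the log2 fold change ranged from -0.25 (*Snhg9*) to 0.40 (*Snhg10*).

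The host genes covered a wide range of levels, and all 36 passed the filter on low counts. Non-coding hosts had mean WT levels from 2.32 CPM (*Snhg10*) to 280.2 CPM (*Gas5*), with a median of 25.5 CPM. Protein-coding hosts lay between 95.5 CPM (*Rabggtb*) and 3837 CPM (*Eef2*), with a median of 389 CPM. The non-coding hosts therefore rested on fewer reads, and the median coefficient of variation between the 3 WT pools was 8.01% for them and 3.23% for the protein-coding hosts.

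The order was similar per length of annotated exon. That length joined the exons of all annotated transcripts, those with a retained intron included. Such transcripts are 20 of 25 for *Gas5* and 14 of 18 for *Snhg1*, where the length of 2969 bases is that of the whole gene. The values per kb therefore depend on how fully each host is annotated, and they are not levels per spliced length. The highest non-coding hosts in WT were *Gas5* at 74.5, *Snhg5* at 42.2 and *Snhg1* at 35.6 CPM per kb. *Snhg1* was followed by *Snhg8* at 33.9 CPM per kb, and these neighbours lay within their spread between pools (SD of 1.9 and 0.87 CPM per kb). The highest protein-coding hosts were *Eef2* at 1154, *Hspa8* at 747 and *Eif4a1* at 401 CPM per kb, and *Gnb2l1* came next at 384. *Snhg4* and *Snhg7* have no entry of that name in Gencode M21 and were not placed in this order.

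Of the 17 non-coding hosts, 16 had a log2 fold change above 0 in mutants, and of the 19 protein-coding hosts 13 did, beside 50.2% of all tested genes. The median log2 fold change was 0.26 in the non-coding hosts and 0.055 in the protein-coding hosts, a difference of 0.20 between the class medians, and 0.00041 over all 15584 tested genes. Every mutant library lay above every WT library for 13 of 17 non-coding hosts (76.5%) and for 8 of 19 protein-coding hosts (42.1%), beside 8.32% of all tested genes. Every mutant library lay below every WT library for 1 non-coding host, *Snhg9*, and for no protein-coding host, beside 6.92% of all tested genes.

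No host passed an adjusted *P* of 0.05 with edgeR's quasi-likelihood test, where 1 of 15584 genes did (0.00642%). At an unadjusted *P* under 0.05, edgeR gave 12 non-coding and 3 protein-coding hosts, all higher in mutants, beside 4.34% of all tested genes in that direction and 4.09% in the other. DESeq2 called 5 non-coding and 2 protein-coding hosts, all higher, beside 0.434% of the 12908 genes to which it gave an adjusted *P*, and 0.651% in either direction. These were *Rabggtb* (DESeq2 adjusted *P* = 2.29e-05), *Gas5* (0.000229), *Dancr* (0.00859), *Snhg4* (0.024), *Taf1d* (0.0318), *Snhg7* (0.0366) and *Snhg8* (0.0381).

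**Figure D1:**
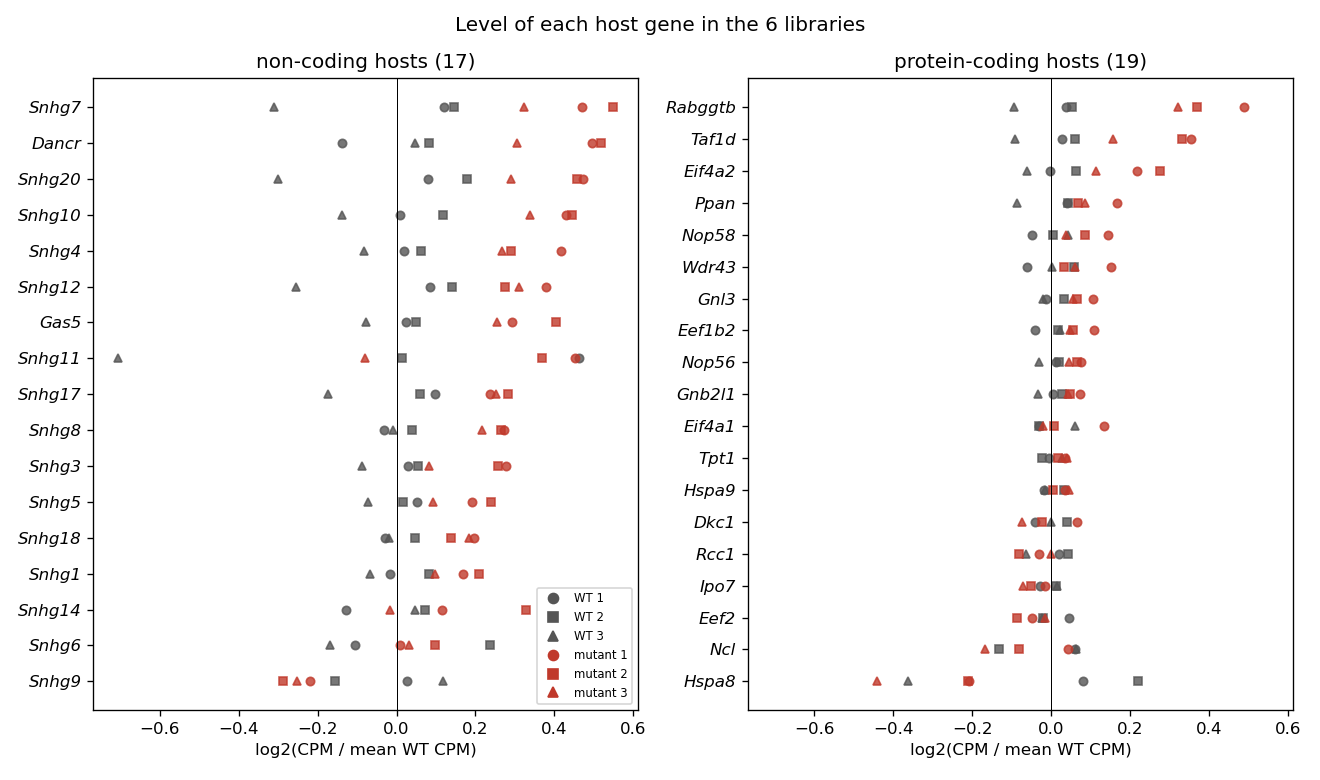
Level of each host gene in the 6 libraries, as log2 of its CPM over its mean WT CPM, for the 17 non-coding hosts (left) and the 19 protein-coding hosts (right), ordered by fold change. Grey points are WT pools, red points are mutant pools, and the shape gives the replicate number; in 13 rows on the left and 8 on the right all red points lie to the right of all grey points.

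*Gas5* (chr1:161034422-161038539), whose exons give a long non-coding RNA named for its rise in growth-arrested cells and which holds 9 annotated snoRNA genes, had by far the most reads of the non-coding class. It was at 284.8, 290.1 and 265.6 CPM in WT and at 343.3, 370.4 and 334.2 CPM in mutants. The lowest mutant pool lay above the highest WT pool. The log2 fold change was 0.32 ± 0.051 (SE), a mean 24.7% higher, and stayed between 0.27 and 0.34 when any library was left out.

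*Dancr* (chr5:74093060-74095406), a non-coding RNA known for restraining differentiation of progenitor cells, was at 12.3, 14.3 and 14.0 CPM in WT and at 19.1, 19.4 and 16.7 CPM in mutants. The groups did not overlap, and the log2 fold change was 0.44 ± 0.086 (SE). *Snhg7* (chr2:26637176-26640244 in RefSeq) had the largest fold change of the class, with 30.0, 30.5 and 22.2 CPM in WT and 38.2, 40.4 and 34.5 CPM in mutants. The log2 fold change of *Snhg7* was 0.45 ± 0.12 (SE), and the third WT pool was far below the other WT pools. Without that pool it was 0.32.

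*Snhg4* was at 22.4, 23.1 and 20.9 CPM in WT and at 29.6, 27.1 and 26.6 CPM in mutants (log2 fold change 0.32 ± 0.065, SE). *Snhg8* (chr3:123507552-123508404), a short host with 1 annotated snoRNA gene, varied least between the WT pools. It was at 28.3, 29.7 and 28.7 CPM in WT and at 34.9, 34.7 and 33.6 CPM in mutants. The groups of both genes were apart, and the log2 fold change of *Snhg8* was 0.25 ± 0.049 (SE).

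*Snhg12* (chr4:132308623-132311024), which holds 4 annotated snoRNA genes, was at 27.4, 28.5 and 21.7 CPM in WT and at 33.7, 31.3 and 32.1 CPM in mutants (log2 fold change 0.32 ± 0.096, SE). *Snhg20* (chr11:117076008-117078955) was at 7.03, 7.53 and 5.41 CPM in WT and at 9.24, 9.13 and 8.14 CPM in mutants (0.40 ± 0.13). *Snhg10* (chr12:105030617-105032279), the host with the lowest mean WT level, was at 2.33, 2.52 and 2.11 CPM in WT and at 3.13, 3.16 and 2.93 CPM in mutants (0.40 ± 0.13). In all 3 the mutant pools lay above the WT pools and the third WT pool was the lowest of the 6. Without that pool the log2 fold change of *Snhg12* was 0.21.

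The abundant hosts *Snhg1* (chr19:8723475-8726443) and *Snhg5* (chr9:88521050-88522929), which hold 8 and 2 annotated snoRNA genes, differed less. *Snhg1* was at 104.5, 112 and 101 CPM in WT and at 119, 122 and 113 CPM in mutants, with a log2 fold change of 0.16 ± 0.051 (SE). *Snhg5* was at 75.8, 73.9 and 69.5 CPM in WT and at 83.4, 86.2 and 77.9 CPM in mutants, with 0.17 ± 0.054 (SE). Neither pair of groups overlapped, though the nearest pools of *Snhg1* were at 112 and 113 CPM.

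*Snhg11* (chr2:158375638-158386145), a host known for its expression in neurons, varied most between pools. It was at 7.22, 5.30 and 3.22 CPM in WT and at 7.18, 6.77 and 4.96 CPM in mutants (log2 fold change 0.26 ± 0.29, SE) with overlapping groups. Without the third WT pool this was 0.015, and without the first 0.53. Of the other non-coding hosts, *Snhg17* (0.26), *Snhg3* (0.21) and *Snhg18* (0.17) had groups that did not overlap, while *Snhg14* (0.15) and *Snhg6* (0.040) had groups that did. *Snhg9* was the only non-coding host with a log2 fold change below 0, at -0.25 ± 0.14 (SE), with 2.66, 2.35 and 2.84 CPM in WT and 2.25, 2.14 and 2.20 CPM in mutants.

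**Figure D2:**
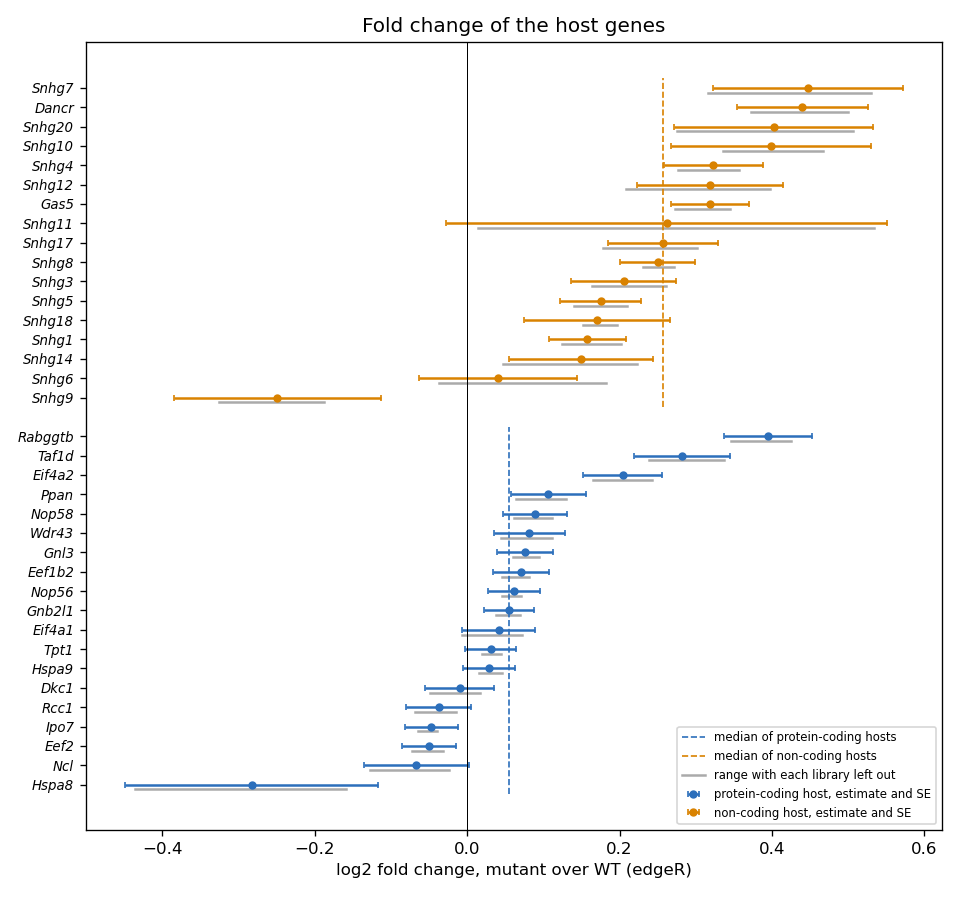
Log2 fold change of each host gene, mutant over WT, with its SE from edgeR (points and bars), and under each the range when any 1 of the 6 libraries is left out (grey line). The dashed lines are the class medians, 0.26 for the non-coding hosts (orange) and 0.055 for the protein-coding hosts (blue); 9 of the 19 protein-coding hosts lie between 0 and 0.1.

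Among the protein-coding hosts, the 5 genes outside ribosome assembly and translation held both extremes of the class. *Rabggtb* (chr3:153907287-153913009) encodes the beta subunit of the enzyme that attaches geranylgeranyl lipids to Rab proteins. It was at 98.0, 99.1 and 89.5 CPM in WT and at 134, 123 and 119 CPM in mutants. The groups were far apart, and the log2 fold change was 0.39 ± 0.058 (SE), a mean 31.6% higher. It is also the lowest protein-coding host by level.

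*Hspa8* (chr9:40800984-40810087), the constitutive cytosolic Hsp70 chaperone, stood at the other end with a log2 fold change of -0.28 ± 0.17 (SE). Its levels were 3400, 3743 and 2502 CPM in WT and 2784, 2776 and 2369 CPM in mutants. The third WT pool lay below 2 of the mutant pools, so the groups overlapped. Its log2 fold change was -0.16 without the second WT pool and -0.43 without the third. *Hspa9* (0.029), a mitochondrial Hsp70, *Rcc1* (-0.037), the exchange factor of the GTPase Ran, and *Ipo7* (-0.047), a nuclear import receptor, were near 0 with overlapping groups.

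The 8 hosts that act in snoRNPs and ribosome assembly had a median log2 fold change of 0.079. *Taf1d* (chr9:15306214-15316991), a subunit of the RNA polymerase I initiation factor SL1, was at 106, 108 and 97.6 CPM in WT and at 133, 131 and 116 CPM in mutants. Its groups did not overlap, and its log2 fold change was 0.28 ± 0.063 (SE). *Ppan* (chr9:20888175-20892178), needed for maturation of the large ribosomal subunit, was at 117.1, 117.2 and 107 CPM in WT and at 128, 119 and 121 CPM in mutants (log2 fold change 0.11 ± 0.050, SE), and its log2 fold change was 0.065 without the third WT pool.

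*Gnl3*, which encodes the nucleolar GTPase nucleostemin, was at 234, 242 and 233 CPM in WT and at 255, 247 and 246 CPM in mutants, with groups that were apart (log2 fold change 0.076 ± 0.037, SE). *Nop58* encodes a core protein of box C/D snoRNPs. It was at 350.0, 363 and 373 CPM in WT and at 400.1, 384 and 372 CPM in mutants, with overlapping groups (0.089 ± 0.042). *Wdr43*, a factor of the small ribosomal subunit, also overlapped, at 300, 325 and 313 CPM in WT and at 348, 320 and 326 CPM in mutants (0.082 ± 0.047). Its log2 fold change was 0.048 without the first WT pool and 0.045 without the first mutant pool.

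*Nop56*, the partner of *Nop58*, had groups that did not overlap at a log2 fold change of 0.061, while *Dkc1* (-0.0098), the pseudouridine synthase of box H/ACA snoRNPs, and *Ncl* (-0.066), nucleolin, overlapped. The 6 hosts that act in translation had a median log2 fold change of 0.048. *Eif4a2* (chr16:23107444-23114136), an RNA helicase of the cap-binding complex, had the largest of these, with 237, 248 and 228 CPM in WT and 277, 288 and 257 CPM in mutants (0.20 ± 0.052, SE). Its groups did not overlap.

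*Eif4a1*, the major form of the same helicase, was several times more abundant. It was at 1702, 1703 and 1813 CPM in WT and at 1907, 1749 and 1716 CPM in mutants, with overlapping groups (0.042 ± 0.048, and between -0.0062 and 0.072 with 1 library left out). *Eef2*, the elongation factor that moves the ribosome along, was at 3956, 3779 and 3776 CPM in WT and at 3709, 3615 and 3795 CPM in mutants and overlapped too (-0.050 ± 0.035, and -0.031 without the first WT pool). *Eef1b2* (0.071) and *Gnb2l1* (0.055), which encodes the ribosomal scaffold RACK1, had groups that did not overlap, and *Tpt1* (0.031) had groups that did.

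The 3 protein-coding hosts with the largest fold changes, *Rabggtb*, *Taf1d* and *Eif4a2*, have annotated transcripts of the NMD type. In Gencode M21 these make up 9 of 12 transcripts of *Rabggtb*, 4 of 16 of *Taf1d* and 3 of 25 of *Eif4a2*. Of the 12 protein-coding hosts with at least 1 NMD-type transcript, 10 had a log2 fold change above 0 (median 0.079), and of the 7 without one, 3 did (median -0.037). Over all tested genes 50.2% were above 0, and the split was not made for genes other than the hosts. The 7 hosts without an NMD-type transcript have between 3 and 10 annotated transcripts, and the 12 with one between 5 and 25. The split is a description of few genes, chosen after their values were seen, and a part of NMD in the host values was not tested. *Eef1b2*, with 5 of 9 transcripts of that type, was at 0.071.

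Summed over the class, the non-coding hosts made up 712, 735 and 658 CPM in WT and 845, 881 and 803 CPM in mutants. The mean was 702 ± 39.2 (SD, n = 3) in WT and 843 ± 39.0 CPM in mutants. *Gas5* supplied 39.5% to 42.0% of it in every library, and without *Gas5* the sums were 421 ± 26.4 and 494 ± 21.9 CPM.

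The protein-coding hosts summed to 17199, 17407 and 16240 CPM in WT and to 17029, 16480 and 16115 CPM in mutants, with overlapping groups. Their sum is set by a few abundant genes: without *Hspa8* it was 13733 ± 68.1 (SD, n = 3) in WT and 13898 ± 301 CPM in mutants. The non-coding sum as a percentage of the protein-coding sum was 4.14, 4.22 and 4.05 in WT and 4.96, 5.35 and 4.98 in mutants, so that the groups did not overlap.

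The 6 pools did not differ evenly within their groups. The third WT pool had the lowest WT level for 12 of 17 non-coding hosts and for 10 of 19 protein-coding hosts, and the third mutant pool the lowest mutant level for 12 and 13. The third WT pool thus enlarged the difference of the non-coding class, whose median log2 fold change was 0.18 without it and lay between 0.24 and 0.30 when any other library was left out. For the protein-coding class the range over all 6 was 0.045 to 0.069.

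The snoRNAs themselves were seen only in part. Gencode M21 places 302 snoRNA and scaRNA genes inside these hosts on the same strand, 208 of them in *Snhg14*, the long imprinted transcript that carries the Snord116 and Snord115 repeats. Of them, 38 have a row of their own in the table, in 24 hosts, and 30 of these rows passed the filter. Libraries of total RNA keep few RNAs this short, and a read on such a row can come from the snoRNA or from host RNA, which cannot be told apart in counts. Of the 30 rows, 17 overlap annotated exons of their host. Exons of transcripts with a retained intron count here, such as 20 of the 25 transcripts of *Gas5* and 14 of the 18 of *Snhg1*. A snoRNA in an intron that other transcripts splice out can thus be among the 17. Rows named Snora24, Snord45c, Snora26, Snord14c, Snord14d, Snord116l1 and Snord116l2 were at 0 in every library. For counted reads this allows up to 0.0825 CPM in the shallowest library (3 counts, counting error only). All of these but Snord116l1 and Snord116l2 overlap annotated exons of their host. How reads that fit both genes were counted was not examined, so the limit is not one on the level of the RNA.

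All 30 tested rows had a log2 fold change above 0, with a median of 0.37 (0.30 over the 9 rows in non-coding hosts and 0.40 over the 21 in protein-coding hosts). Every mutant library lay above every WT library for 17 of the 30, beside 8.32% of all tested genes. The fold change of the row exceeded that of its host for 20 of 21 rows in protein-coding hosts and for 5 of 9 in non-coding hosts. The rows are low, with 18 of 30 under 2 CPM. The 68 further snoRNA and scaRNA rows tested outside these hosts had a median of 0.32, with 60 above 0. For 28 of those 68 (41.2%) every mutant library lay above every WT library.

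**Figure D3:**
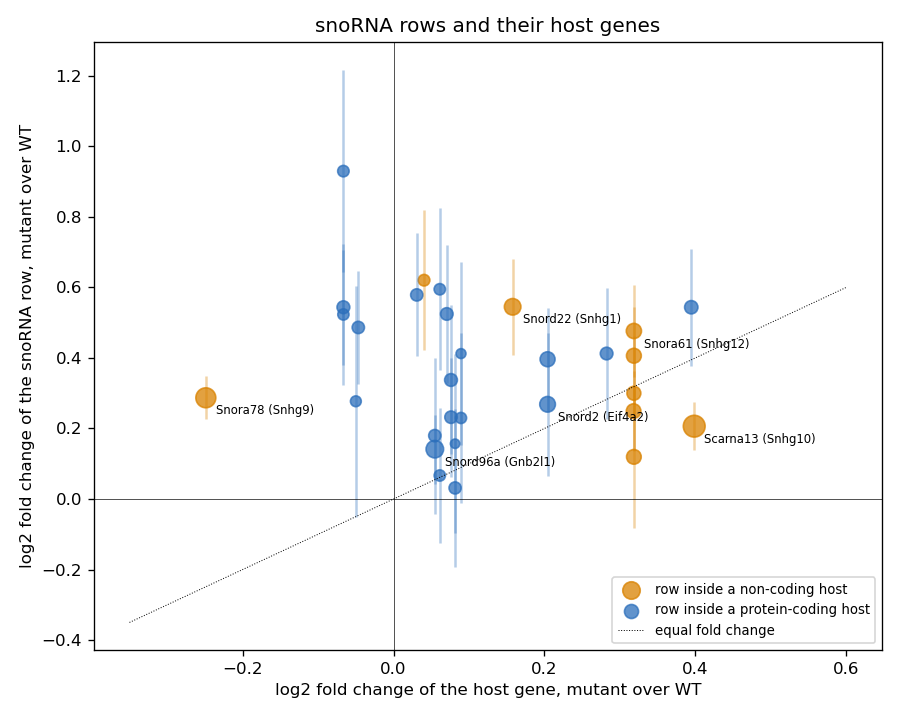
Log2 fold change of the 30 tested snoRNA and scaRNA rows (vertical axis, with SE) against that of the host gene they lie in (horizontal axis); point area grows with the mean level of the row. Rows in non-coding hosts are orange and rows in protein-coding hosts blue; all 30 lie above 0, and 25 lie above the dotted line of equal fold change.

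*Scarna13*, in an intron of *Snhg10*, had the most reads of these rows, with counts between 2140% and 2822% of those of its host. It was at 55.8, 65.4 and 59.5 CPM in WT and at 74.6, 67.6 and 66.7 CPM in mutants (log2 fold change 0.21 ± 0.069, SE), below the 0.40 of its host. *Snora78* was also well above its host *Snhg9*, at 26.2, 25.8 and 27.8 CPM in WT and at 34.7, 31.3 and 31.3 CPM in mutants. Its log2 fold change was 0.29 ± 0.061 (SE), and the host's was -0.25, so that the intronic RNA and the exons of *Snhg9* pointed in opposite directions.

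*Snord22*, in *Snhg1*, was at 5.44, 6.76 and 6.92 CPM in WT and at 9.42, 10.6 and 7.94 CPM in mutants (log2 fold change 0.55 ± 0.14, SE) beside 0.16 for its host. With edgeR neither *Snora78* nor *Snord22* passed an adjusted *P* of 0.05, and with DESeq2 both did (0.0438 and 0.0487). *Snord47*, in *Gas5*, lay near its host in fold change: it was at 3.49, 3.59 and 3.24 CPM in WT and at 4.26, 4.13 and 3.91 CPM in mutants (0.25 ± 0.11, SE).

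In *Snhg12*, the H/ACA rows *Snora61* (log2 fold change 0.48 ± 0.13) and *Snora16a* (0.41 ± 0.14) had groups that did not overlap, while *Snora44* (0.12 ± 0.20) overlapped. *Snora81* (0.40 ± 0.15) in *Eif4a2* did not overlap, and *Snord2* (0.27 ± 0.20) in the same host and *Snord96a* (0.14 ± 0.098) in *Gnb2l1* did. The 6 rows inside hosts whose own log2 fold change was below 0 were above 0, which follows from all 30 tested rows being so. Among the 6 were *Gm24148* (0.54), *Snora75* (0.93) and *Snord82* (0.52) in *Ncl*, each at about 1 to 2 CPM, which are named here after their values were seen.

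The proteins that bind, build and trim snoRNAs showed little difference. Of 17 snoRNP core and assembly genes tested, 13 had a log2 fold change above 0, with a median of 0.012. For 3 of the 17 (17.6%) every mutant pool lay above every WT pool, beside 8.32% of all tested genes. *Nop10*, a core protein of box H/ACA snoRNPs, was the one that DESeq2 called (adjusted *P* = 0.0356). It was at 85.4, 87.1 and 87.4 CPM in WT and at 103, 99.95 and 96.6 CPM in mutants (log2 fold change 0.20 ± 0.041, SE). *Fbl*, the methyltransferase of box C/D snoRNPs, was at 0.073 ± 0.035 with groups that did not overlap. Of the 13 debranching, exosome and NMD factors, 8 were above 0, with a median of 0.0037 and a range from -0.092 to 0.073, and neither tool called any.

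**Figure D4:**
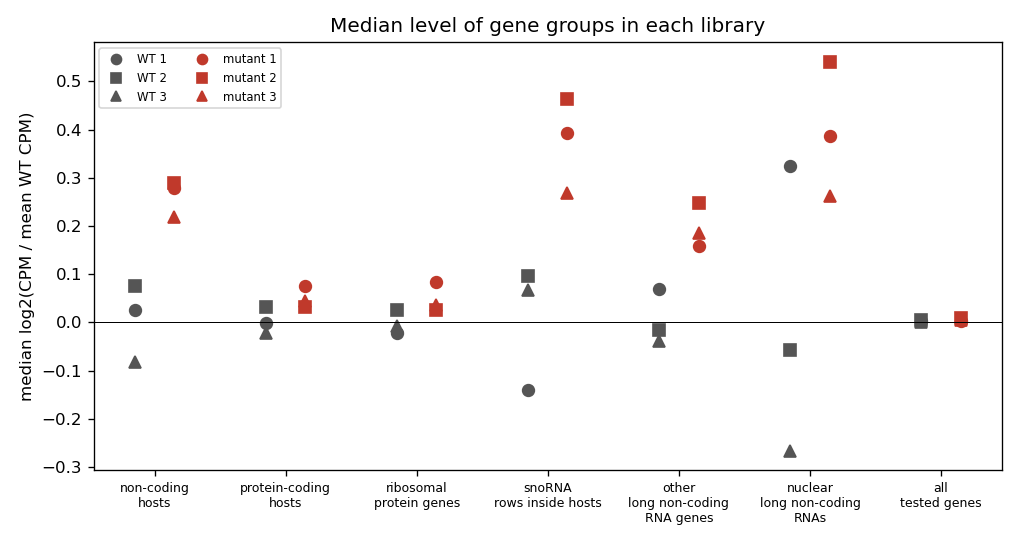
Median over each gene group of log2 of the CPM over its mean WT CPM, for each of the 3 WT (grey) and 3 mutant (red) pools, with the shape giving the replicate number. The mutant pools lie between 0.22 and 0.29 for the non-coding hosts and between 0.16 and 0.25 for the other long non-coding RNA genes, above the WT pools in both. For the protein-coding hosts they lie between 0.032 and 0.075, and the second WT pool, at 0.0324, is level with the second mutant pool, at 0.0323. For the nuclear non-coding RNAs the first WT pool, at 0.33, lies above the third mutant pool, at 0.26.

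Other groups moved with the hosts. Of the 85 ribosomal protein genes tested, which are snoRNA hosts in part, 74 were above 0, with a median log2 fold change of 0.050, close to that of the protein-coding hosts. Every mutant pool lay above every WT pool for 24 of the 85 (28.2%), beside 42.1% of the protein-coding hosts. Of 570 other long non-coding RNA genes tested, 408 were above 0, with a median of 0.17, and 108 had every mutant pool above every WT pool (18.9%, beside 8.32% of all tested genes). *Malat1*, a nuclear non-coding RNA, was at 899, 759 and 709 CPM in WT and at 1026, 1274 and 1055 CPM in mutants (0.50 ± 0.12, SE). The 3 nuclear non-coding RNAs *Malat1*, *Neat1* and *Meg3* summed to between 741 and 949 CPM in WT and to between 1074 and 1325 CPM in mutants, which did not overlap. *Malat1* made up most of that sum, and the groups of *Neat1* (0.62 ± 0.44, SE) and *Meg3* (0.24 ± 0.15) overlapped. The part of such differences in the result for the hosts was not tested.

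Summed levels of the markers of the cell types in the head overlapped between the groups, though several lists lay to one side of 0. The 8 neural tube markers summed to between 491 and 589 CPM in WT and to between 466 and 518 CPM in mutants, and the 6 neural crest markers to between 230 and 302 CPM and between 263 and 288 CPM. The ranges overlapped as well for the 4 surface ectoderm, 4 endothelial, 6 primitive erythroid, 5 cardiac and 4 visceral endoderm markers. Each of these markers passed the filter on low counts. The cardiac sum was lowest at 6.76 CPM in the first WT pool, where the visceral endoderm sum was highest at 24.0 CPM. The log2 fold change was below 0 for 7 of 8 neural tube markers (median -0.11, 1 with groups that did not overlap), for 6 of 6 primitive erythroid markers (-0.11), for 3 of 4 endothelial markers (-0.069) and for 4 of 4 visceral endoderm markers (-1.16). It was above 0 for 5 of 6 neural crest markers (0.075), for 4 of 4 surface ectoderm markers (0.14) and for 5 of 5 cardiac markers (0.69), and neither tool called any of these genes. The part of cell composition in the host values was not tested.

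Several hosts share their locus with another gene in Gencode M21, and the strand setting of the counting was not given in the sources used here. *Snhg9* lies opposite *Rps2*, an abundant ribosomal protein gene with 979 to 1421 CPM and a log2 fold change of 0.083 ± 0.18 (SE). *Snhg3* overlaps *Rcc1* on the same strand, and *Snhg6*, *Eef1b2*, *Nop56*, *Eif4a2*, *Gnl3*, *Gnb2l1*, *Taf1d* and *Dkc1* overlap protein-coding genes on the opposite strand. *Gas5*, *Snhg1*, *Snhg8*, *Snhg12* and *Rabggtb* share no exon with another gene there, short RNA genes left aside. Abundant protein-coding hosts such as *Tpt1* also have processed copies elsewhere in the genome, so that part of their reads may have been counted there.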

How the data were processed

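Total RNA of pooled E9.0 heads, depleted of ribosomal RNA, was sequenced as stranded paired-end libraries (3 WT, 3 *Snrpb* ncc+/-). The authors trimmed the reads, mapped them with STAR to mm10 and counted them per gene against Gencode M2; the methods name HTSeq and the processing notes of the labels name featureCounts. The deposited values are raw counts per gene symbol, without normalization. Total counts were between 36378803 and 74909774 per library, and at this depth the spread between pools set the precision for the abundant hosts. Counting error adds to it for low rows, such as *Snhg10* with 85, 148 and 78 counts in WT. All 6 columns were used, and no pair of libraries was a copy.

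Mutants were compared with WT with edgeR (version 4.0.16, R 4.3.3): TMM, filterByExpr (15584 of 24421 genes kept), robust quasi-likelihood test, two-sided, Benjamini-Hochberg adjusted *P* of 0.05, all 6 libraries, no covariate. DESeq2 (version 1.42.0, alpha 0.05) was the alternative tool. CPM uses TMM-scaled totals. The pools are separate, so *P*-values measure the spread between pools of 2 heads. Other alternatives were DESeq2 size factors, library-size scaling, no filter, a minimum of 10 counts per library, a replicate block, and leaving out each library.

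The host genes, lists and tests were chosen with earlier results of these data known. Values in every library are given for the 8 hosts of each class with the largest absolute fold change, the 3 of each class highest per exon length, and those past an adjusted *P* of 0.05 with either tool; snoRNA rows are named by mean level, at most 10, apart from those stated. Coordinates and types come from Gencode M21 (GRCm38/mm10), matched by name for 34 of 36 hosts (*Gnb2l1* as *Rack1*), and from RefSeq GRCm38.p6 for *Snhg4* and *Snhg7*. The tests were also run on simulated counts, in which the changed genes differed by more than any host gene did here. That check does not cover differences of the size seen in the hosts.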

Additional observations from a re-analysis of the deposited data

How the results depend on the processing

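Over all genes, edgeR called 1 gene, against 84 with DESeq2 and 11 without the filter on low counts, and between 0 and 6 with 1 library left out. Of the host genes it called 0, against 7 with DESeq2 and 2 without the filter (*Gas5* and *Rabggtb*). The median log2 fold change of the non-coding hosts moved from 0.26 to 0.18 without WT replicate 3 and was at most 0.30 in the other leave-outs. *Eif4a1* turned from 0.042 to -0.0062 without mutant replicate 1, and its highest leave-out value was 0.072. Scaling by DESeq2 size factors or library size, at least 10 counts in every library and the replicate block changed no call. The replicate numbers share no stated litter or day, so the pools were not treated as pairs. Deviations of same-numbered pools correlated at 0.17, 0.032 and 0.36, and those of differently numbered pools at between -0.25 and 0.088. The correlations were therefore not used to decide on pairing. With the replicate block edgeR called 0 host genes and 1 gene in all, and the non-coding median was 0.26. With 3 pools in a group, the groups overlapped for 11 of the 19 protein-coding hosts, and 3 of the 19 had an unadjusted *P* under 0.05 with edgeR. Low rows such as the snoRNAs under 2 CPM rest on few reads.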
